A study of Mus musculus with 16 samples.

Results

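Mouse embryonic fibroblasts (MEFs) were compared with 4 iPS lines that had been made from such cells and had then lost the vector that reprogrammed them. The comparison took 5 of the 16 samples of the experiment, chosen by their sample titles: 1 array of MEFs and 1 array of each line. Values of the lines are given in the order F-B1, F-C5, F-E4, F-N7 wherever no line is named. The MEFs were of C57BL/6 background and are the starting cell type, before any vector. The lines carry the C57BL/6 background in their labels and were derived, in the same order, from clones 2-B1, 2-C6, 2-E and 2-N made with iHAC2. Their vector, iHAC2, is a human artificial chromosome that held 2 copies of a cassette for Klf4, c-Myc, Sox2 and Oct4 under the ubiquitous CAG promoter, 2 further copies of Oct4, an shRNA against p53 and EGFP. It was transferred into MEFs by microcell-mediated chromosome transfer. By the study's account, the recipient MEFs of these transfers were also given mimics of microRNAs that are typical of ES cells. Cells that had lost the vector spontaneously were sorted as EGFP-negative and cloned again. Each line is therefore 1 clone, and a replicate here is a line and not a second culture of one line. The iPS and ES cells were grown on a feeder layer of MEFs from Jcl:ICR mice that had been treated with mitomycin C, so RNA of the lines can include RNA of feeder fibroblasts. The ES lines B6ES, from C57BL/6 mice, and TT2, from a cross of C57BL/6 and CBA mice, are given beside the results because they were read in the same scan session as the MEF array.

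Reprogramming replaces the gene program of a mesenchymal cell with that of the early epiblast. As background, Oct4, Sox2 and Nanog bind together at the regulatory sequences of pluripotency genes, their own included, and the cells pass through a mesenchymal-to-epithelial transition in which Snail, Twist and Zeb factors give way to E-cadherin and tight junctions. Pluripotent mouse cells also divide with a short first gap phase, use threonine and glucose heavily, and keep Polycomb and DNA methylation machinery at high levels. Without the vector these states rest on the cell's own genes, and the question the comparison addresses is how far, and in which genes, the vector-free lines differ from the fibroblasts.

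Each value below is a level, the log2 of a probe's signal minus the 75th percentile of its array, and each difference is the level in the lines minus the level in MEFs, so that 1 unit is a factor of 2. Levels of different probes cannot be set against each other. The array held 41174 probes. Those that 1 or more of the 16 arrays measured well above background, 31411, were tested, and no spot was saturated. A probe was called when its adjusted p in limma was under 0.05, the mean difference was at least 2-fold and all 4 lines lay on one side of the MEF array. Because there is 1 MEF array, the fit assumes that MEFs vary like the other groups, and a permutation test of 1 array against 4 could not give a two-sided exact p below 0.4. The fit held the 16 arrays in 6 groups, and the error of each difference is pooled over the groups with more than 1 array. MEFs add nothing to this error, which can be wider than the spread of the 4 lines. The MEF array was read in the first scan session and the lines in the second, so the session and the cell type cannot be told apart. The median difference over all tested probes was 0.16. Where MEFs, or all 4 lines, were not well above background, the fold is a lower bound and is written as "at least". The median of a gene list takes such levels as measured, so it is also given with those genes at their bound where that changes it, and under normexp, another background correction, where that moves it by more than 1.5 times.

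The 2 states differed over much of the genome. In the lines 5217 probes were called higher, 16.6% of those tested, and 4517 were called lower, 14.4%. The median size was 1.81 among probes called higher and -2.09 among probes called lower. Differences of at least 4-fold were called for 2282 probes upwards and 2422 downwards, at least 16-fold for 600 and 478, and at least 64-fold for 168 and 80. Of the probes called higher, 758 were not well above background in MEFs but were so in all lines, and of the probes called lower, 1277 were well above background in MEFs and in no line. These 2 counts rest on unequal detection. The lowest level well above background was -6.00 on the MEF array and between -5.58 and -5.04 on the arrays of the lines. Its part in the counts was not tested. With 1 probe for each of 16890 genes, 2900 genes were called higher (17.2%) and 2585 lower (15.3%), and 31 genes had probes called in both directions. The lines lay close together beside this distance. Among probes well above background in every line, the highest and lowest line differed by at least 2-fold for 374 of 4785 probes called higher (7.82%) and 202 of 2741 called lower (7.37%), against 1614 of 23338 (6.92%) of all such probes.

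**Figure D1:**
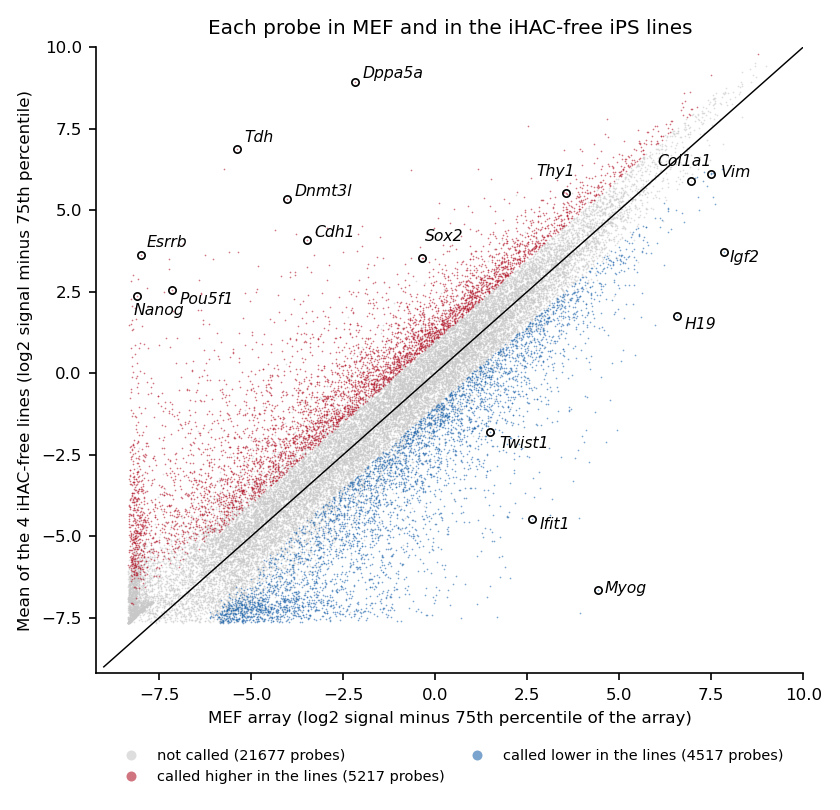
Level of each of the tested probes on the MEF array (horizontal axis) against the mean of the 4 iHAC-free lines (vertical axis), both as log2 signal minus the 75th percentile of the array; the line marks equal levels. Probes called higher in the lines are red, probes called lower are blue, and circles mark genes described in the text. Pluripotency genes lie far above the line at the left edge, and Myog lies farthest below it among the marked genes.

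Of genes measured well above background in MEFs and in all lines, each by its brightest probe, Tdh rose most. It encodes threonine dehydrogenase, which starts the breakdown of threonine to glycine and an acetyl group, by which mouse pluripotent cells feed one-carbon metabolism. Its probe (mm9, chr14:64111327-64111386) had a level of -5.38 in MEFs and of 7.18 in F-B1, 6.73 in F-C5, 6.98 in F-E4 and 6.66 in F-N7. All 4 lines lay above MEFs, as the rule for a call requires, and the difference was 12.27 ± 1.55 (SE), or 4924-fold, with an adjusted p of 0.00016. The 15 genes that the naming rule took for the largest fitted increases were, in alphabetical order, Aire, Cyct, Dppa4, Dppa5a, Esrrb, Lin28a, Mageb16, Nanog, Nr0b1, Rbmxl2, Sall4, Tdh, Tex19.1, Trap1a and Trh. For the probes with the largest change, those of all of them except Tdh were not well above background in MEFs, so their increases are bounds, from at least 254-fold for Trh to at least 4036-fold for Dppa5a, and have no order. Aire, known for the display of tissue antigens in the thymus, rose at least 720-fold, from -7.24 in MEFs to between 3.23 and 3.89 in the lines. Cyct, the testis form of cytochrome c, rose at least 265-fold.

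Among the 15 genes with the largest fitted decreases were 8 genes of striated muscle: Myl1, Myog, Cav3, Tnnt2, Mybph, Ttn, Sln and Tnni1. Tnni1, a troponin of slow muscle and the only one of these 15 well above background in every line, fell 178-fold. The decreases of genes not well above background in any line are bounds and have no order. Myl1, a light chain of fast muscle myosin, was at 3.94 in MEFs and between -7.64 and -7.15 in the lines, at least 609-fold lower. Myog, the muscle transcription factor myogenin, was at least 849-fold lower, and Cav3, the caveolin of muscle, at least 127-fold lower. Of the others, Iigp1, Ifi44 and Ccl5 are induced by interferon or inflammation, Chl1 and Neurod2 are neuronal, Hbb-bt is an adult beta-globin, and 2900092D14Rik has no name beyond its clone. Iigp1 fell at least 158-fold. In bulk RNA fewer cells of a type and less RNA per cell cannot be told apart.

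Of 11 tested core pluripotency factors 9 were called higher and none lower, with a median difference of 6.15, which was 5.0 under normexp and 4.84 in the deposited value table. Pou5f1, which encodes Oct4, was at -7.14 in MEFs (mm9, chr17:35647280-35647340) and at 2.78 in F-B1, 2.43 in F-C5, 2.55 in F-E4 and 2.52 in F-N7. The spread among the lines, 2.57 ± 0.15 (SD, n = 4), was small beside the difference from MEFs, which was at least 378-fold with an adjusted p of 1.7e-06. Nanog (mm9, chr6:122664091-122664150) was at -8.09 in MEFs, 2.46 in F-B1, 2.53 in F-C5, 2.27 in F-E4 and 2.23 in F-N7, at least 331-fold higher, with an adjusted p of 1.3e-05. Sox2 differed from both in that MEFs already had a measurable level. It stood at -0.36 in MEFs (mm9, chr3:34550773-34550832) and at 3.43 in F-B1, 3.63 in F-C5, 3.45 in F-E4 and 3.67 in F-N7, 15-fold higher, with an adjusted p of 0.0025. The ES lines B6ES and TT2 were at 3.56 and 4.00 for Pou5f1, 1.91 and 2.43 for Nanog and 3.74 and 3.36 for Sox2. Sall4, a zinc finger partner of Oct4, rose at least 470-fold, and Lin28a, which blocks maturation of let-7 microRNAs, at least 309-fold. Utf1 rose 169-fold, Zscan10 29.8-fold and Otx2 18.0-fold. Foxd3, with a difference of 1.78, was not called (adjusted p = 0.16), and Tdgf1, the Nodal co-receptor Cripto, had no value on the MEF array and lay between 2.65 and 3.04 in the lines. Fgf4 and L1td1 were not matched to a probe here.

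Of 13 tested genes of the naive state, the state of the early epiblast that LIF maintains, 8 were called higher and none lower, with a median difference of 4.08, which was 2.73 under normexp. Esrrb, an orphan nuclear receptor, was at -7.98 in MEFs and at 3.69, 3.57, 3.49 and 3.69 in the lines, at least 780-fold higher. Zfp42, also known as Rex1, was at -7.36 in MEFs and at 2.61, 2.63, 2.33 and 2.36 in the same order, at least 357-fold higher, while TT2 reached 5.18 and B6ES 2.89. Tfcp2l1 rose 271-fold, Nr0b1 at least 792-fold, Tcl1 28.1-fold, Nr5a2 27.9-fold and Klf5 6.15-fold. The genes that carry the LIF signal or that MEFs express themselves behaved otherwise. Klf4, one of the vector's factors, was at 4.86 in MEFs and between 5.4 and 5.97 in the lines, a difference of 0.82 with a 95% interval from -0.75 to 2.39 (adjusted p = 0.40). Klf2 differed by 0.82 as well and fell short of 2-fold (adjusted p = 0.012), although its second probe was called. Stat3, the transcription factor of LIF signalling, had a difference of -0.67, and Lifr, the LIF receptor, one of 0.02. Myc had a level of 1.33 in MEFs and between -0.37 and 0.27 in the lines, which was not called (adjusted p = 0.12), while Mycn rose 10.3-fold.

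The promoters of Zfp42 and Nanog are shown because Oct4 is known to bind the octamer motif, ATGCAAAT. The sequences are the 250 bases before the gene's start in RefSeq (GRCm38.p6), written in the direction of transcription, with the match in capitals, and both strands were searched. For Zfp42, chr8:43307010-43307259 on the minus strand, the full octamer reads on the opposite strand from 186 to 179 bases before the start. For Nanog, chr6:122707239-122707488 on the plus strand, taken from the farther upstream of 2 starts in the table, the first 7 letters read on the opposite strand from 75 to 69 bases before the start.
Zfp42: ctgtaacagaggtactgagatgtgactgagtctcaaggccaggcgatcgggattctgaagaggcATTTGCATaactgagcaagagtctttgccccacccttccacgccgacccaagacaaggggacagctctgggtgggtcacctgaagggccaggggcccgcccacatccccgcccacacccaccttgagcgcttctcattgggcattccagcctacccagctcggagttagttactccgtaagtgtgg
Nanog: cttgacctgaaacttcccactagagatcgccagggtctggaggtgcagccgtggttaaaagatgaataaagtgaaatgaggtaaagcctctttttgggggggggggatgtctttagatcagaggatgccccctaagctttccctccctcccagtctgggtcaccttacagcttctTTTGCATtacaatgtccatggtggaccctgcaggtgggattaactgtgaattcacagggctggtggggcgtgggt
The octamer was found in 1.62% of all 27025 promoters of the table and its first 7 letters in 4.07%. Among 9 core factors with a promoter in the table, the 7 letters were found for Sox2 and Nanog, and among 11 naive-state genes the octamer was found for Zfp42. These matches describe the letters in a short window and not where a factor bound in these cells.

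Genes known from the germ line and the early embryo rose in most cases. Of 19 tested, 17 were called higher and none lower. The median difference was 6.02, but 9 of the 19 were well above background in MEFs, and the median was 5.19 with the others at their bound and 3.44 under normexp, with 17 calls there as well. Dppa5a, an RNA-binding protein of pluripotent cells, was at -2.18 in MEFs on its brighter probe, which was well above background there, and at 8.71, 9.02, 8.98 and 9.04 in the lines, which is 2216-fold higher. Dppa3, also called Stella and known to protect maternal methylation in the zygote, rose 642-fold, from -5.61 to between 3.32 and 3.97. Dppa4 rose at least 454-fold and its partner Dppa2 18.7-fold. Rhox5, a homeobox gene of the X chromosome, rose 119-fold and the oocyte gene Ooep 120-fold. Genes of the meiotic and piRNA program rose too: Mael at least 74.3-fold, Sycp3 at least 41.8-fold, Ddx4 36.5-fold, Rnf17 at least 13.3-fold and Dazl at least 7.04-fold. Slc25a31, whose probe was not well above background in MEFs or in any line, and Hormad1 (adjusted p = 0.09) were not called.

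**Figure D2:**
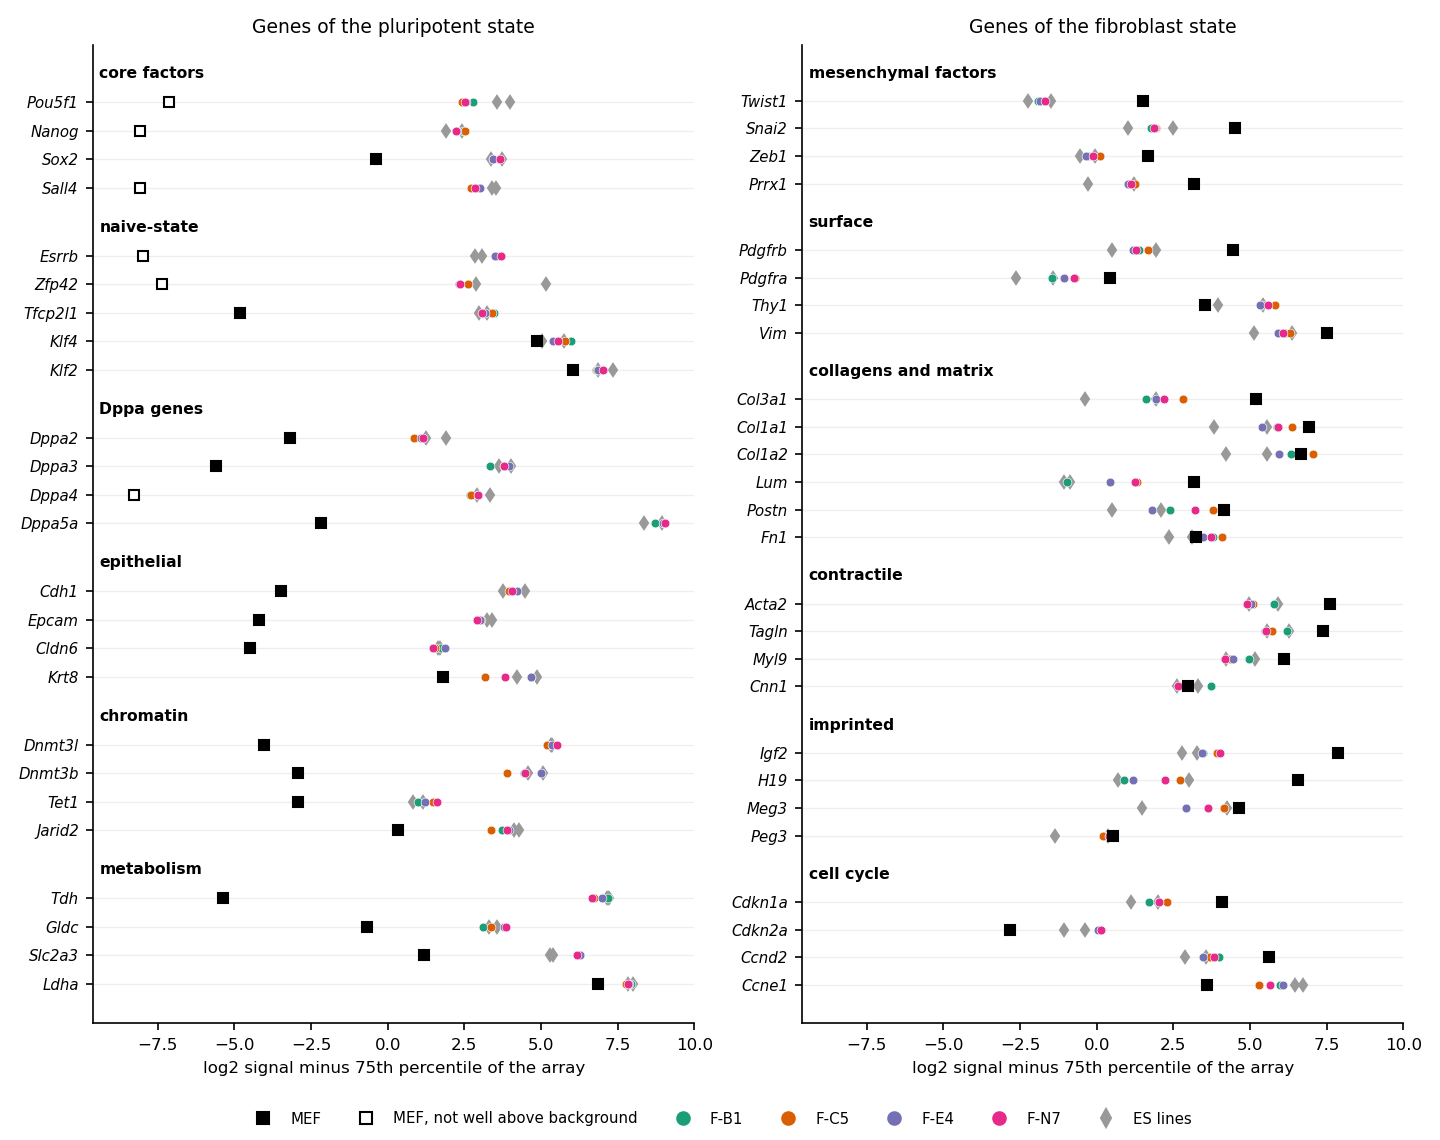
Levels of genes of the pluripotent state (left) and of the fibroblast state (right) on each array, as log2 signal minus the 75th percentile of the array. Squares are MEFs, open where not well above background, coloured points are the 4 iHAC-free lines and grey diamonds the ES lines B6ES and TT2. For the core factors the lines cluster more than 3 units right of MEFs, whereas Col1a2, Fn1 and Peg3 lie on or around the MEF value.

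An epithelial program was gained. Of 22 tested genes of epithelial junctions and keratins 18 were called higher and none lower, with a median difference of 4.24, which was 3.31 under normexp. Cdh1, E-cadherin, which holds epithelial cells together, was at -3.47 in MEFs and at 4.07 in F-B1, 3.94 in F-C5, 4.23 in F-E4 and 4.06 in F-N7. The lines differed from MEFs by 187-fold but with a wide error, 7.55 ± 2.36 (SE), and an adjusted p of 0.024. That error is pooled over all groups fitted, and the lines themselves lay between 3.94 and 4.23. Epcam, an adhesion molecule of epithelia, rose 144-fold, the claudins Cldn7 75.5-fold and Cldn6 70.6-fold, and the tight junction protein Tjp3 102-fold. Regulators of the epithelial state rose with them: Grhl2, a transcription factor, at least 134-fold, and the splicing factors Esrp1 and Esrp2 by at least 39.6-fold and by 3.33 on the log2 scale. The simple-epithelium keratins did not pass in the fit of all arrays, although Krt8 passed when MEFs and the lines alone were fitted. Krt8 was at 1.81 in MEFs and at 4.69, 3.17, 4.69 and 3.83 in the lines, above MEFs in each line, with a difference of 2.29 and an adjusted p of 0.34. Krt18 had a difference of 1.81 (adjusted p = 0.33), and neither Dsp, desmoplakin, nor Cdh3, P-cadherin, was called.

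Mesenchymal transcription factors went the other way, with 18 of 22 called lower, none higher, and a median difference of -2.71, which was -2.47 with bounds and -2.05 under normexp. Twist1, a driver of the mesenchymal state, was at 1.5 in MEFs and at -1.91, -1.74, -1.86 and -1.70 in the lines. The lines lay within 0.21 of each other and were 9.86-fold lower than MEFs, with an adjusted p of 1.1e-05. Snai2, which represses E-cadherin, fell 6.22-fold, Zeb2 7.71-fold and Zeb1 3.62-fold. Factors that pattern limb, skull and trunk mesenchyme fell further: Meox2 at least 40.7-fold, Foxd1 25.1-fold, Foxc1 17.5-fold, Foxc2 10.3-fold and the bone regulator Runx2 8.57-fold. Snai1, with a difference of -0.84, Twist2, with -0.64, Meox1, with -1.74, and Runx1, with 0.41, were not called. For Twist1, Snai2 and Zeb1 the lines stayed well above background in every case, so RNA of these genes remained measurable.

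The surface and filament genes by which fibroblasts are recognised changed less evenly. Of 18 tested, 8 were called lower and 1 higher, with a median of -1.37. The lower calls were 6 without F-B1, F-E4 or F-N7, and 9 without F-C5 or under normexp. They were 10 under quantile normalization and 11 when MEFs and the lines alone were fitted. Pdgfrb, a growth factor receptor of mesenchymal cells, fell 8.43-fold, and Fap, fibroblast activation protein, 8.47-fold. Vim, vimentin, was at 7.5 in MEFs and at 6.15, 6.30, 5.90 and 6.06 in the lines, 2.64-fold lower, with an adjusted p of 0.025. Cadherins divided, with Cdh2, N-cadherin, falling by 2.96 and Cdh13 by 1.64 on the log2 scale (each called by 1 of 2 probes), while Cdh11 differed by 0.82 and was not called. The gene called higher was Thy1, a surface glycoprotein often used to mark fibroblasts. It was at 3.55 in MEFs and at 5.4 in F-B1, 5.80 in F-C5, 5.32 in F-E4 and 5.6 in F-N7, 3.96-fold higher, with an adjusted p of 0.026. Its level was 3.96 in B6ES and 5.41 in TT2, so that 1 ES line lay within the range of the iHAC-free lines and 1 did not. S100a4, at 4.92 in MEFs and between 5.54 and 6.22 in the lines, and Ly6a, with a difference of 0.55, were not called. Pdgfra, with a difference of -1.43, missed the threshold here (adjusted p = 0.06) and passed it under quantile normalization (adjusted p = 0.0448) and with normexp background correction (adjusted p = 0.0272).

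Of 19 tested collagen genes 7 were called lower and 1 higher, with a median of -1.26. Col1a1, the main collagen of connective tissue, was at 6.94 in MEFs and at 5.88, 6.36, 5.4 and 5.92 in the lines. Each line was below MEFs, but the difference of -1.04, with a 95% interval from -2.54 to 0.45, did not pass (adjusted p = 0.26). Col1a2 was at 6.66 in MEFs and at 6.35, 7.06, 5.96 and 6.59 in the lines, which lay on both sides of MEFs, with a difference of -0.17 and an interval from -1.56 to 1.22; its second probe was called. The fibrillar collagens Col3a1 and Col11a1 fell 8.33-fold and 9.0-fold, and Col14a1, which organises fibrils, at least 21.4-fold. Col18a1, a basement membrane collagen and the source of endostatin, rose 3.82-fold. For Col1a1 the ES lines were at 3.82 in B6ES and 5.54 in TT2, and for Col1a2 at 4.21 and 5.57. The iHAC-free lines thus had higher Col1a1 levels than B6ES in 4 of 4 lines and overlapped TT2, a difference from the ES group of 1.21 that did not pass (adjusted p = 0.23).

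Matrix glycoproteins and the enzymes that crosslink matrix gave 10 calls lower and none higher among 24, with a median of -1.53; 6 genes were called lower without F-B1 and 6 without F-E4. Ogn, the small proteoglycan osteoglycin, fell 88.9-fold, and Tgfbi 10.4-fold. Lum, lumican, was at 3.16 in MEFs and ranged widely in the lines, from -0.98 in F-B1 to 0.44 in F-E4, 1.25 in F-N7 and 1.33 in F-C5. It fell 6.26-fold (adjusted p = 0.042), a call lost without F-B1 (adjusted p = 0.0623), without F-E4 (adjusted p = 0.0657) or when MEFs and the lines alone were fitted. Postn, periostin, at 4.16 in MEFs, lay between 1.81 and 3.78 in the lines and was not called. Fn1, fibronectin, was at 3.23 in MEFs and at 3.79, 4.09, 3.47 and 3.72 in the lines, above MEFs in all 4, and Dcn, decorin, lay on both sides of MEFs; neither was called. Of 21 matrix proteases and inhibitors 7 were called lower and none higher, with a median of -1.06. The aggrecanases Adamts5 and Adamts1 fell 15.7-fold and 8.74-fold. Mmp3, stromelysin, moved apart from these. Its level was 2.44 in MEFs and 3.30, 5.07, 4.27 and 4.74 in the lines, above MEFs in each, but the difference of 1.90 did not pass (adjusted p = 0.16). Summed over the collagen genes, the signal was 8.67 on the log2 scale in MEFs, 7.70 to 8.49 in the lines, 6.68 in B6ES and 7.57 in TT2. The part of feeder fibroblasts in these levels was not tested.

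Genes of the contractile and actin-filament apparatus fell more evenly, 15 of 18 called lower and none higher, with a median of -1.64. Acta2, smooth muscle actin, was at 7.6 in MEFs and at 5.77, 5.11, 5.02 and 4.90 in the lines, 5.27-fold lower, with an adjusted p of 0.013. F-B1 was the highest of the lines for Acta2, for Tagln at 6.20 against 5.49 to 5.73, and for Cnn1 at 3.73 against 2.64 to 3.01. Tgfb1i1 fell 6.61-fold, Myh11 5.72-fold, Tpm1 4.48-fold and Tagln 3.13-fold. Myl9, a regulatory light chain of myosin, was at 6.12 in MEFs and at 4.97, 4.33, 4.43 and 4.18 in the lines, 3.12-fold lower at an adjusted p of 0.047. That adjusted p rose above 0.05 without F-C5, F-E4 or F-N7, at values between 0.0718 and 0.0829. It was 0.0528 with the slide as a random block and 0.0551 with no filter on dim probes. Cnn1, Tpm2 and Actn1 were not called. Many genes of this kind are known targets of serum response factor, which binds the CArG box. The promoter of Myl9 is shown because it holds a full match in capitals, from 161 to 152 bases before the start (GRCm38.p6, chr2:156775214-156775463, plus strand).
Myl9: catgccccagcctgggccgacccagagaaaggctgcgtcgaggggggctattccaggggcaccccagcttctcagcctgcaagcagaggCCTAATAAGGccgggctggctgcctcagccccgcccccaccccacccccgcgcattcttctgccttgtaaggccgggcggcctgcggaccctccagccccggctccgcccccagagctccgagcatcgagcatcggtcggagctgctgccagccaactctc
A CArG box was found in 1.41% of all promoters of the table and, among the 14 contractile genes that matched it, for Myl9, Cnn2 and Vcl; with 14 of 18 genes matched no share is given for the group.

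Of 37 tested Hox genes, which record a cell's position along the body axis, 23 were called lower and none higher. The median was -2.01, but -1.54 with bounds and -0.94 under normexp, where 18 were called lower, and without F-B1 22 were called lower and 1 higher. The largest fitted decrease was in Hoxd13, which patterns digits and genitalia, at 1.35 in MEFs and at -4.58, -5.13, -4.68 and -4.64 in the lines. The level was well above background in 3 of the 4 lines, and the difference was -6.11 ± 0.52 (SE), with an adjusted p of 1.1e-05. In the Hoxd cluster the other genes at the same end fell as well, Hoxd10 at least 12.1-fold and Hoxd11 at least 5.44-fold. Hoxa5 fell at least 17-fold, Hoxa11 15.5-fold, Hoxa7 9.87-fold and Hoxb3 8.2-fold. Hoxb1 and Hoxd1, with differences of 0.89 and 1.28, were not called, and neither was well above background in MEFs. Hoxc4 and Hoxc5 differed by -0.17 and -0.29 and were well above background in every line. For Hoxd8 the mean conceals a split, since F-C5 was at -1.90, above MEFs at -2.78, and the other lines lay between -4.51 and -4.46. Of the 37 genes, 13 were not well above background in any line, and the sum over the list fell from 4.42 on the log2 scale in MEFs to between 1.87 and 2.06 in the lines.

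**Figure D3:**
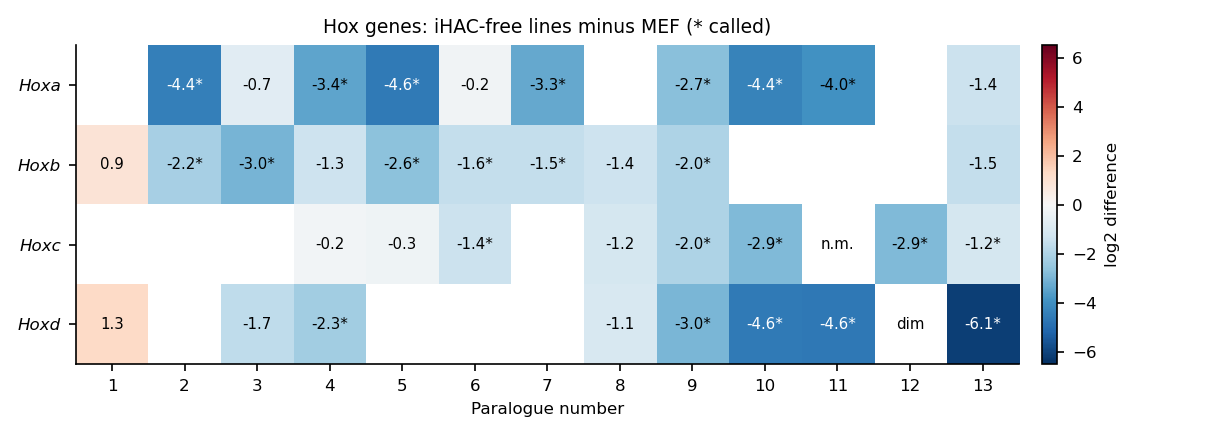
Difference between the iHAC-free lines and MEFs for Hox genes, in log2 units, with the 4 clusters as rows and the paralogue number, from the 3′ end of the cluster to its 5′ end, as columns. Blue is lower in the lines, asterisks mark called genes, n.m. marks a gene not matched to a probe here, dim marks one not tested, and empty cells have no gene or are not shown. The deepest decrease is Hoxd13, and Hoxb1 and Hoxd1 carry no call.

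Genes of the cell cycle rose in the lines. Of 24 tested cyclins and DNA replication genes 13 were called higher and 1 lower, with a median of 1.19. Ccne1, cyclin E, which drives entry into S phase, was at 3.59 in MEFs and at 5.98, 5.29, 6.06 and 5.66 in the lines, 4.48-fold higher. The replication licensing genes moved together, with Cdt1 5.21-fold, its inhibitor Gmnn 4.78-fold and Mcm5 4.46-fold higher, and Mcm2, Mcm3, Mcm4, Mcm6 and Mcm7 between 2.40-fold and 4.02-fold higher. Mitotic cyclin Ccnb1 rose 5.86-fold. The D cyclins, which answer to growth factors, did not rise: Ccnd2 fell 3.66-fold, while Ccnd1, with a difference of -0.79, and Ccnd3, with 0.58, were not called. Among 19 cell-cycle inhibitors and p53 targets 3 were called higher and 3 lower, near the shares over all genes of 17.2% and 15.3%. Cdkn1a, p21, a target of p53 that halts the cycle, was at 4.10 in MEFs and between 1.71 and 2.30 in the lines, 4.25-fold lower, and the p53 target Phlda3 fell 3.37-fold. Cdkn2a, the locus of Ink4a and Arf, ran in the other direction, from -2.83 in MEFs to 0.10, 0.09, 0.02 and 0.14 in the lines, 7.59-fold higher at an adjusted p of 0.00043. The levels of Cdkn2a in the ES lines, -1.06 in B6ES and -0.39 in TT2, lay between MEFs and the iHAC-free lines. Trp53 itself rose 2.13-fold at an adjusted p of 0.041 (1 of 2 probes). That call was lost without F-B1 or F-E4, and under quantile normalization or with the deposited value table, each at an adjusted p of 0.0507. It was also lost, at 0.103, when MEFs and the lines alone were fitted. Of 12 tested telomerase and shelterin genes 8 were called higher and none lower, with Rif1 13.5-fold, Terf1 7.39-fold and Tert, the catalytic subunit of telomerase, 4.6-fold higher.

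Of 14 tested genes of DNA methylation and its removal 8 were called higher and 1 lower. The median was 1.6, or 1.31 with bounds and 1.06 under normexp, where 7 were called higher. Dnmt3l, a cofactor of the de novo methyltransferases, was at -4.02 in MEFs and at 5.23, 5.18, 5.37 and 5.52 in the lines, 652-fold higher. Dnmt3b rose 166-fold and Dnmt3a 4.19-fold (1 of 3 probes), while the maintenance enzyme Dnmt1, with a difference of 0.53, was not called. The TET enzymes, which oxidise methylcytosine, divided: Tet1 rose 19-fold, Tet2 was not called with a difference of 1.28, and Tet3 fell 7.57-fold (1 of 3 probes). Polycomb genes gave 15 calls higher and 3 lower among 23, with a median of 1.37. Jarid2 rose 10.7-fold, Mtf2 5.29-fold and Epop 18.5-fold, all partners of the repressive complex PRC2, whose enzyme Ezh2 rose 2.52-fold. Cbx7 and Cbx8, chromobox proteins of PRC1, moved in opposite directions. Cbx7, the form typical of ES cells, was at -3.95 in MEFs and at 2.99, 3.04, 3.14 and 3.27 in the lines, 134-fold higher, while Cbx8 fell 14-fold. Among the PCGF subunits Bmi1 fell 9.67-fold, and Pcgf6 and Pcgf2 rose 4.86-fold and 3.34-fold. The catalytic core subunits Rnf2, with a difference of 0.01, and Ring1, with -0.19, were not called.

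Imprinted genes, expressed from one parental copy and often tied to fetal growth, were mostly lower, 13 of 25 called lower and 3 higher, with a median of -2.0. Igf2, the fetal growth factor, was at 7.85 in MEFs and at 3.48, 3.92, 3.45 and 4.02 in the lines, 17.6-fold lower. Its neighbour H19 was at 6.58 in MEFs and at 0.88, 2.73, 1.2 and 2.24 in the lines, 28.2-fold lower, and the ES lines spanned the same range, from 0.70 in TT2 to 3.0 in B6ES. Plagl1, a regulator of other imprinted genes, fell 25.5-fold and Dlk1 20.8-fold. The maternally expressed RNAs of the Dlk1 region were not uniform, since Rian fell 6.27-fold (1 of 2 probes) while Meg3, at 4.65 in MEFs and between 2.91 and 4.15 in the lines, was not called. Nnat, neuronatin, varied more among the lines than any other imprinted gene tested. It was at 2.17 in MEFs, -0.28 in F-N7, -4.72 in F-B1, -5.10 in F-E4 and -5.78 in F-C5, below MEFs in all lines, while the ES lines stood near F-N7, at -0.94 and -0.88. F-N7 also had the lowest Grb10 level, 2.02 against 3.34 to 3.86, and the highest Nap1l5 level, -4.78 against -7.86 to -6.79. Phlda2, a brake on placental growth, rose 22.5-fold, Slc22a18 9.01-fold (1 of 2 probes) and Snrpn 6.91-fold. Peg3, with levels between 0.20 and 0.41 in the lines against 0.54 in MEFs, was not called.

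Genes of TGF-beta family signalling moved in both directions, with 5 of 30 tested genes called higher and 15 lower and a median of -1.43. The genes called higher were of the Nodal branch, which acts in the epiblast. Nodal was at -3.95 in MEFs and at 3.04, 2.95, 2.81 and 3.01 in the lines, 119-fold higher. Its inhibitors and relatives followed, Lefty1 207-fold, Lefty2 at least 178-fold and Gdf3 at least 159-fold, and the receptor Acvr2b rose 14.1-fold. Lefty2 spread over the lines, from 0.67 in F-C5 to 2.58 in F-B1. Among ligands of the TGF-beta branch, which acts in mesenchyme, Tgfb2 was at 2.28 in MEFs and between -2.82 and -2.26 in the lines, 28.4-fold lower, Tgfb3 fell 11.6-fold, and Tgfb1, with a difference of -0.78, was not called. The receptors Tgfbr1 and Tgfbr2 fell 2.30-fold and 3.94-fold (Tgfbr2 by 1 of 2 probes), and the matrix targets Ccn1 and Ccn2 4.17-fold and 4.38-fold. The Id genes, targets of BMP signals, fell between 3.81-fold and 5.48-fold. Bmp4, with a difference of -1.75, was not called. Of 18 FGF genes 2 were called higher, Etv5 15.3-fold and Fgf17 at least 7.75-fold, and 1 lower, Fgf7, a mesenchymal ligand of epithelia, 3.84-fold. These FGF counts lie below the shares over all genes, 17.2% called higher and 15.3% lower. Of 28 Wnt genes 1 was called higher, the nuclear effector Tcf7 5.24-fold, and 7 lower, among them the receptor Fzd1 14.9-fold, the target Ccn4 8.81-fold and the ligand Wnt2 6.97-fold.

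Metabolic genes rose. Of 14 tested genes of threonine, glycine and one-carbon metabolism 10 were called higher and none lower, with a median of 1.5. After Tdh the largest was Gldc, which breaks down glycine in mitochondria, at -0.66 in MEFs and at 3.11, 3.38, 3.81 and 3.87 in the lines, 18.4-fold higher. Shmt1 rose 5.78-fold, Mthfd1 4.5-fold and Mthfd1l 4.49-fold, and Gcat, the partner of Tdh in threonine breakdown, 3.06-fold. Mthfd2 was 2.61-fold higher at an adjusted p of 0.041, and leaving out any of the 4 lines took it over the threshold, at adjusted p between 0.0512 and 0.0764. Phgdh, Gcsh and Tyms were not called. Of 22 genes of glycolysis and glucose uptake 18 were called higher and 1 lower, with a median of 1.65. The higher calls were 14 under quantile normalization and 17 in the deposited value table or without any 1 line. They were 19 when MEFs and the lines alone were fitted. Slc2a3, a glucose transporter, was at 1.17 in MEFs and at 6.26, 6.27, 6.29 and 6.19 in the lines, 33.7-fold higher, with the lines within 0.11 of each other. The lactate exporter Slc16a3 rose 10.1-fold, the regulatory kinase Pdk1 7.74-fold, the phosphofructokinase Pfkl 6.77-fold and hexokinase Hk2 3.95-fold. Ldha, at a difference of 1.01, stood at the limit of 2-fold and was below it under quantile normalization, at 0.48, with normexp or the deposited value table, both at 0.95, and without F-B1, at 0.99. The gene called lower was Eno3, the muscle enolase, 2.11-fold. Gapdh, often used as a reference, rose 3.11-fold, while Actb fell 2.28-fold (1 of 2 probes). Over 16 housekeeping genes 4 were called higher and 1 lower, with a median of 0.48, and the Tbp, Ywhaz and Sdha probes differed by 0.53, 0.17 and 0.37 and were not called. The shares over all genes were 17.2% called higher and 15.3% lower.

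**Figure D4:**
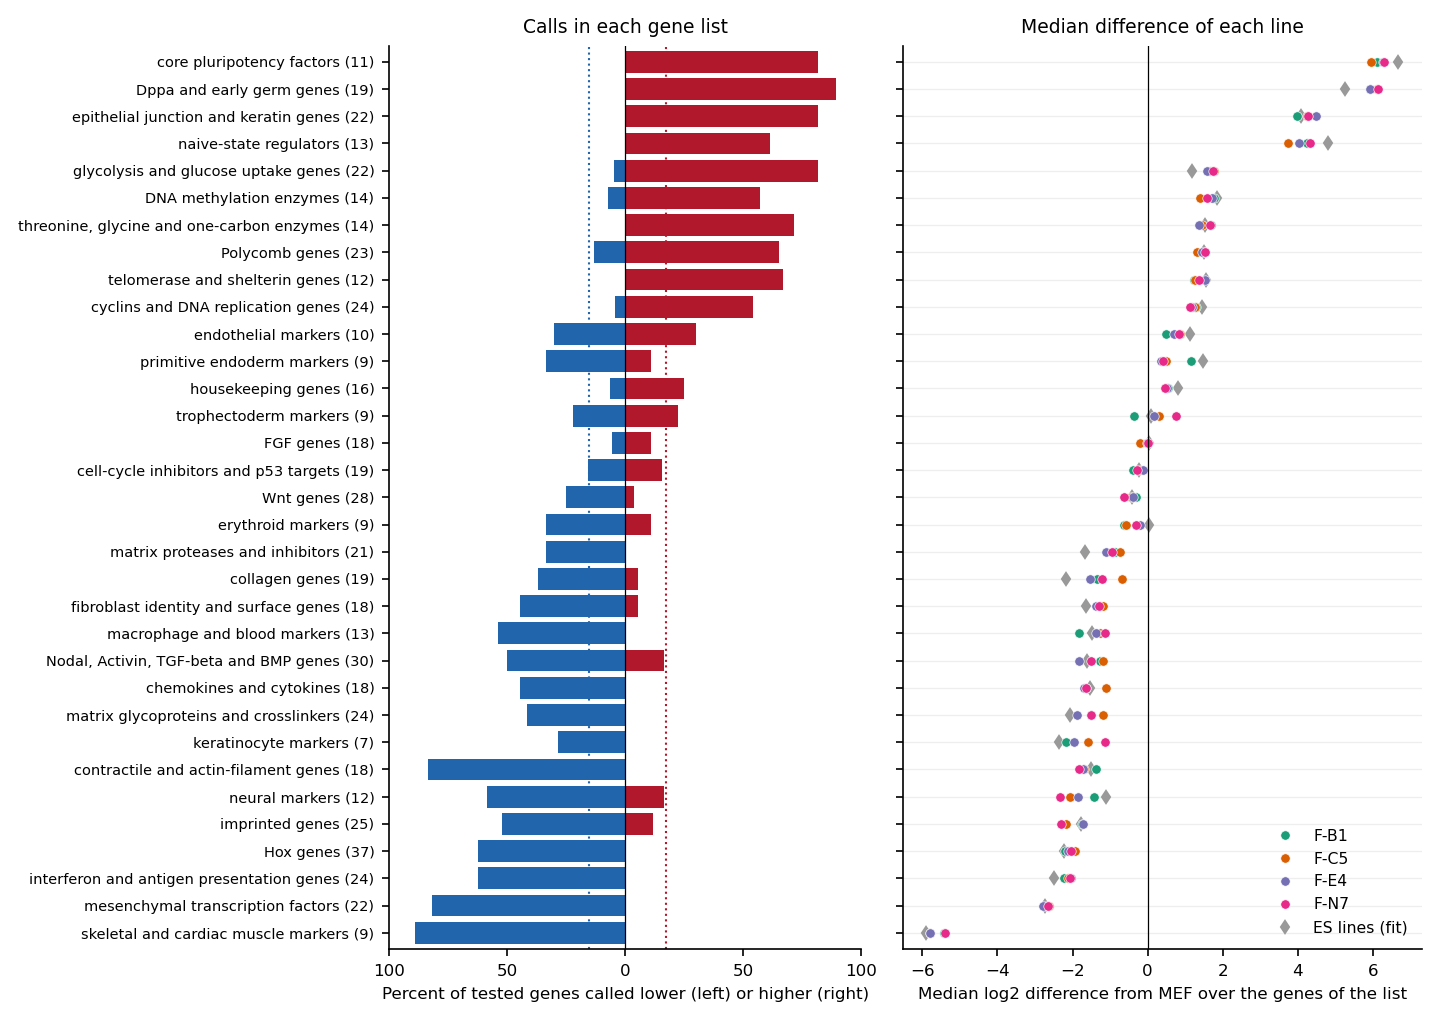
Left, the percent of tested genes in each list called higher (red, to the right) or lower (blue, to the left) in the iHAC-free lines than in MEFs, with the number of tested genes in brackets; dotted lines mark the shares over all genes, 17.2% and 15.3%. Right, the median log2 difference from MEF over the list in each line (coloured points) and for the ES lines (diamonds). Medians of the 4 lines lie close together in lists such as housekeeping genes and farther apart in trophectoderm and keratinocyte markers.

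Interferon-induced genes fell in the lines, 15 of 24 tested genes of the interferon response and antigen presentation called lower and none higher, with a median of -2.06, or -1.67 with bounds. Ifit1, which binds viral RNA, was at 2.64 in MEFs and at -4.41, -4.04, -4.80 and -4.68 in the lines, 139-fold lower, with an adjusted p of 0.00098. Isg15, a ubiquitin-like protein, was at 4.64 in MEFs and at -1.47, -2.53, -2.08 and -2.33 in the lines, a difference of -6.75 with an adjusted p of 0.00011. Ifi44 fell at least 148-fold, Ifit3 70.5-fold, the regulator Irf7 50.9-fold and Oas1a 12.8-fold. The signal transducers Irf9 and Stat2 fell 5.45-fold and 3.17-fold. Genes of antigen presentation did not follow. H2-K1, a class I molecule, was at 3.63 in MEFs and between 3.64 and 3.81 in the lines, and H2-D1, Tap1, Tapbp, Psmb8, Psmb9 and B2m were not called, although 1 of the 3 B2m probes was. The B2m probe used for the list, with a difference of -1.38, passed when MEFs and the lines alone were fitted. The ES lines, read in the same session as MEFs, were at -6.58 and -5.65 for Ifit1 and at -3.25 and -1.88 for Isg15. Of 18 chemokines and cytokines 8 were called lower and none higher. Ptx3 fell 79.7-fold, the interferon-induced Cxcl10 75.1-fold and Cxcl12, a stromal chemoattractant, 7.44-fold, while Ccl2, with a difference of -2.08, and Il6, with -1.31, were not called. Both passed when MEFs and the lines alone were fitted, and Ccl2 also passed under quantile normalization.

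The promoters of Ifit1 and Isg15 are shown because both hold copies of the interferon-stimulated response element, searched on both strands and added after these values had been seen. For Ifit1 (GRCm38.p6, chr19:34640639-34640888, plus strand) it reads on the opposite strand from 104 to 95 and from 85 to 76 bases before the start. For Isg15 (GRCm38.p6, chr4:156200819-156201068, minus strand) there are 3 overlapping matches, from 78 to 69, 72 to 63 and 66 to 57 bases before the start. Capitals mark the matches, and the sequences run in the direction of transcription.
Ifit1: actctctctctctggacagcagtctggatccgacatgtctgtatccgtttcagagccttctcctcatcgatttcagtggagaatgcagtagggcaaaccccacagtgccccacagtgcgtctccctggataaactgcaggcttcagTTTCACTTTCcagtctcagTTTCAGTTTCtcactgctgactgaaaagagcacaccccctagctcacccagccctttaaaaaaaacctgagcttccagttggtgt
Isg15: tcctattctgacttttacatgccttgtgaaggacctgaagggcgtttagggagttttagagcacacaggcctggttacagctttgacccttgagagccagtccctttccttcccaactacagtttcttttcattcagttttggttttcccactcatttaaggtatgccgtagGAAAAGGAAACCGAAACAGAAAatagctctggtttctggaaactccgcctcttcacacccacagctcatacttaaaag
Of 23 genes of the list with a promoter in the table, 8 held the element (34.8%): Ifit3, B2m, Ifit1, Isg15, Stat2, Oas1a, Rsad2 and Bst2. Over all promoters of the table the share was 3.05%, and B2m and Bst2 hold the element without having been called.

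The MEF array also carried markers of other cells of the embryo. Of 9 tested markers of skeletal and cardiac muscle, 8 were called lower in the lines and none higher, and all 9 were well above background in MEFs. The median was -5.56, or -5.34 with bounds and -3.88 under normexp. Myog, myogenin, was at 4.41 in MEFs (mm9, chr1:136188874-136188933) and at -6.71, -6.19, -7.40 and -6.26 in the lines, not well above background in any line and at least 849-fold lower. Myod1, which commits cells to muscle, fell at least 36.6-fold and embryonic myosin Myh3 47.1-fold. Ttn was called by 7 of its 8 probes. Of 12 tested neural markers 7 were called lower and 2 higher. The higher calls fell to 1 without F-B1, F-E4 or F-N7, under normexp or quantile normalization, in the deposited value table and with the slide as a random block, and the lower calls fell to 5 under normexp or without F-C5 or F-N7. Dcx, doublecortin, a protein of migrating neurons, fell at least 70.0-fold (2 of 3 probes), Map2 11.2-fold and Ncam1 8.08-fold, while Olig2 rose 40.8-fold, from -5.69 to between -0.40 and -0.27, and Sox1 was higher at least 2.02-fold.

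Blood and endothelial markers were mixed, and the shares over all genes were 17.2% called higher and 15.3% lower. Of 13 tested macrophage and blood markers 7 were called lower and none higher. Aif1 fell 10.1-fold, Tyrobp 5.43-fold and Csf1r, the receptor that macrophages need, 3.73-fold, whereas Lyz2, lysozyme, was at 5.0 in MEFs and at 4.37 in F-B1, 5.57 in F-C5, 5.67 in F-E4 and 5.53 in F-N7, on both sides of MEFs. Summed over the list the signal was 5.47 on the log2 scale in MEFs and between 4.54 and 5.78 in the lines. Among 9 tested erythroid markers 3 were called lower and 1 higher. The alpha-globin Hba-a1 was at -0.95 in MEFs and between -5.0 and -4.50 in the lines. Hbb-bt fell at least 52.6-fold on the probe with the largest change of its 4. The counts use the brightest probe of each gene, and there the lowest difference of any erythroid marker was -3.83. Alas2, the heme synthesis enzyme of red cell precursors, was not well above background in MEFs or in any line. Of 10 tested endothelial markers 3 were called higher and 3 lower: Pecam1, also a marker of naive pluripotent cells, rose at least 17.6-fold, and Kdr, the VEGF receptor, fell from 0.12 to between -5.55 and -3.22. Cdh5 and Tie1 were not called, although Cdh5 passed without F-B1. Of 7 keratinocyte markers 2 were called lower, Krt5 5.38-fold and Trp63 at least 7.07-fold (1 of 2 probes). These markers move with the fall of mesenchymal and interferon genes in the same comparison, and their part in it was not tested.

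**Figure D5:**
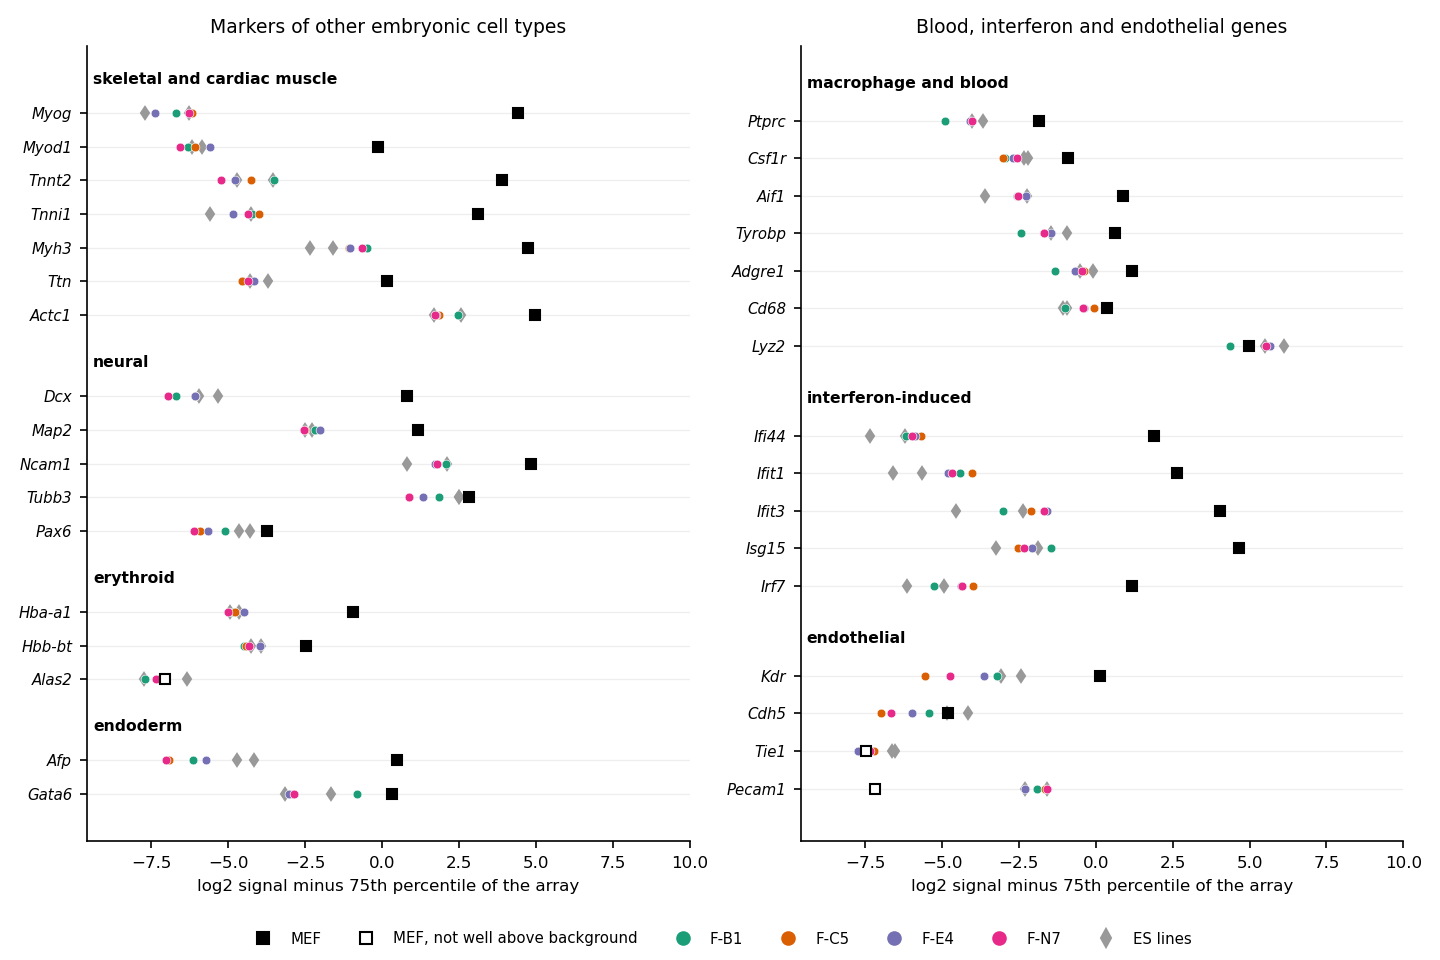
Levels of markers of muscle, neural, erythroid and endodermal cells (left) and of macrophage, interferon-induced and endothelial genes (right) on each array, as log2 signal minus the 75th percentile of the array. Squares are MEFs, open where not well above background, coloured points the 4 iHAC-free lines and grey diamonds the ES lines. Muscle genes and interferon-induced genes lie to the right in MEFs, while Lyz2 has lines on both sides of MEFs.

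Some genes of the first extraembryonic lineages spread widely among the lines. Of 9 tested primitive endoderm markers 1 was called higher and 3 lower, and of 9 trophectoderm markers 2 higher and 2 lower. Over all genes 17.2% were called higher and 15.3% lower. The trophectoderm genes called higher were Cdx2 and Elf5, neither well above background in MEFs. No trophectoderm gene was called higher without F-B1 or F-E4, under normexp or quantile normalization or when MEFs and the lines alone were fitted, and 1 was without F-C5 or F-N7. Without F-B1 or under normexp 1 was called lower. Foxa2, an endoderm factor, was at -3.08 in MEFs, 2.03 in F-B1, -2.51 in F-C5, -0.89 in F-E4 and -1.78 in F-N7. Sox17 was at -0.28 in F-B1 and between -4.87 and -4.38 in the other lines, and Eomes at -0.09 in F-B1 and between -2.65 and -2.22. F-B1 thus had the highest level of each, and TT2 was near it, at 2.59 for Foxa2, -1.37 for Sox17 and 0.01 for Eomes, while B6ES was at -1.60, -3.55 and -2.40. None of these 3 genes was called against MEFs. Cdx2, the trophectoderm factor, rose at least 3.76-fold on a probe well above background in 3 of 4 lines (adjusted p = 0.036), a call lost without F-B1, F-E4 or F-N7, under normexp or quantile normalization and when MEFs and the lines alone were fitted, at adjusted p between 0.0563 and 0.0895. Afp, made by visceral endoderm and fetal liver, was at 0.48 in MEFs and between -7.02 and -5.73 in the lines, at least 55.7-fold lower. Gata6 fell 6.70-fold (1 of 3 probes), a call lost without F-C5, F-E4 or F-N7 (adjusted p from 0.0768 to 0.0786). The Gata6 call was also lost with no filter on dim probes (adjusted p = 0.0515) and when MEFs and the lines alone were fitted (adjusted p = 0.0618). Among 5 sex-linked genes Ddx3y and Kdm5d were called lower. These 2 calls fell to 1 without F-C5 or F-E4 or when MEFs and the lines alone were fitted, and to 0 without F-N7. Ddx3y was at 1.18 in MEFs and at 0.11, -0.98, 0.13 and -0.89 in the lines, with an adjusted p of 0.036 in limma that lay between 0.0638 and 0.0688 where its call was lost. Uty, a gene of the Y chromosome, was at -3.91 in MEFs, between -4.06 and -3.18 in the lines, and at -7.58 in B6ES and -7.86 in TT2.

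Across chromosomes 1 to 19 and X, the median difference ran from -0.02 on chromosome 18 to 0.28 on chromosome 17. The share of tested probes called higher lay between 12.1% on chromosome 3 and 20.6% on chromosome 17. The share called lower lay between 10.01% on chromosome 17 and 18.7% on chromosome 3. Chromosome Y was not tabulated.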

How the data were processed

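Per the labels and file headers, total RNA of each sample was labelled with Cy3 and hybridised to a 1-colour Agilent mouse array, and the deposited scanner files hold the processed spot intensity of Feature Extraction. The authors also deposited a GeneSpring GX 11 table of log2 values centred on each probe's median, used here as an alternative. From the intensity, log2 values minus the 75th percentile of each array were computed without control spots, spots of one probe were averaged, and probes well above background on at least 1 array were kept. Differences were fitted with limma 3.58.1 (R 4.3.3) on all 16 arrays in 6 groups, with Benjamini-Hochberg adjustment over 31411 probes. Tables and figures were made with Python 3.11.15, pandas 2.3.3 and matplotlib 3.10.9. On simulated data, with 50 probes changed at each size among 31383, the fit called 26% of changes of 1.5, 58% of 2, 68% of 3 and 92% of 5 log2 units. Far fewer probes changed there than in the data, where 12075 had an adjusted p under 0.05. The adjustment was therefore stricter in the simulation, and these shares do not carry over to the real comparison. The simulated MEFs were also given the spread pooled over the groups, which 1 MEF array cannot check.

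A bound on a fold sets the bright group's mean against the higher of the dim probe's own level and the lowest signal of a probe well above background on that array. The number of arrays limits the precision, and nothing in the labels says that the lines are more than 1 culture each, so p-values measure the spread between these arrays. Of 41174 probes, 26690 were named through an accession, 5189 through a symbol and 952 through a synonym in RefSeq, and 8343 keep the file's name. The 15 largest called changes in each direction, 1 probe per gene, and the genes of 34 lists (609 genes) were named, each list gene by its brightest tested probe. The members and lists were chosen with earlier results of these data known. Promoters were taken from RefSeq (GRCm38.p6). Shares of promoter classes are void and not given, since 13307 of 16890 tested genes (78.8%) had a promoter in the table. Probe positions are mm9, as in the files. Alternatives covered background correction, normalization, filters, the groups fitted, the slide and leaving out each line. A few genes of the lists are not reported here by name, and they stay in the counts.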

Additional observations from a re-analysis of the deposited data

Results flagged for a closer look

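Among the 4 lines, the highest or lowest line stood apart from the other three by Dixon's criterion for 10 of 125 probes examined, where chance alone gives about 1 in 20, or 6.25. F-B1 was the line that stood apart for 7 of them. It was higher than the others for Gata6 (-0.81 against -3.02 to -2.87), Eomes (-0.086 against -2.65 to -2.22), Axin2, a target of Wnt signals (-1.18 against -2.52 to -2.41), and the muscle actin Actc1 (2.48 against 1.73 to 1.86). It was lower for Dkc1, a telomerase component (-1.32 against 0.86 to 1.13), the leukocyte gene Ptprc (-4.89 against -4.10 to -4.01) and the chemokine Ccl5 (-6.85 against -5.34 to -5.04). Ccl5 was well above background in only 1 of the 4 lines. Its F-B1 level lay under the lowest level well above background on that array, -5.49, so this gap is not a measured difference. F-C5 stood apart for Hoxd8 (-1.90 against -4.51 to -4.46) and Lin28a (1.92 against 2.36 to 2.41), and F-N7 for Wnt5a (-4.80 against -4.30 to -4.20). Without F-B1 the difference of Dkc1 from MEFs was 1.45 and passed the test (adjusted p = 0.045).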

How the results depend on the processing

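Of 1506 values of named probes under the alternatives, 1448 kept their side of the threshold, 17 came to pass it, 41 no longer passed it, and none changed direction. The 5217 probes called higher and 4517 called lower became 4649 and 4850 with quantile normalization, 4850 and 4781 with the deposited value table, and 3685 and 3061 with normexp. The median difference of all probes was 0.16, against 0.05 with quantile normalization and 0.10 with the value table. With 1 probe per gene the counts were 2900 and 2585, with a threshold of 4-fold 2282 and 2422, and with 4-fold on one side and no test 2634 and 2666. A stricter filter on dim probes left 2848 called lower. Without 1 line at a time they ranged from 4784 to 5099 higher and from 4074 to 4257 lower. With MEFs and the lines alone fitted, more genes were called for some lists, 3 against 1 higher among fibroblast and among Wnt genes, 3 against 1 lower among cyclin and replication genes, 5 against 3 higher among imprinted and among endothelial genes, and 4 against 2 lower among keratinocyte markers. The FGF genes called lower were 3 with quantile normalization against 1, and the erythroid markers called lower 1 with normexp against 3. No paired analysis was possible because the replicate numbers follow accession order and MEFs have 1 array. A change in a gene near background is measured only as a bound, and 1 MEF array gives no spread of its own.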
